A study of Arabidopsis thaliana with 12 samples.

Results

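Transcripts of 42 Arabidopsis thaliana genes for the light-harvesting antenna of the chloroplast and for tetrapyrrole synthesis are described here across 12 arrays of whole seedlings. The members were chosen by locus: the LHCA, LHCB and ELIP families and the enzymes that lead to chlorophyll, heme and the phytochrome chromophore. Of the 42 genes, 38 were measured, out of 22402 genes on the array, through 35 probe sets. By the loci listed for each probe set, 33 genes had a probe set of their own. LHCB1.1, LHCB1.2 and LHCB1.3 shared 1 (written LHCB1.1/2/3 below), and LHCB2.1 and LHCB2.2 shared 1 (LHCB2.1/2). Whether a probe set of an antenna gene such as LHCB1.4 also reads transcripts of close relatives was not tested. LHCB1.5, which no probe set used here names, and LHCB3, LHCB6 and CHLI2, whose probe sets also list a gene outside the families, were not analysed here.

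The study set CCA1-34 against the wild type Columbia (Col). CCA1-34 overexpresses CCA1, a Myb-related clock transcription factor, and is without circadian rhythm per the series' design text. No source used here gives the promoter that drives CCA1 in this line, and CCA1-34 is 1 line. Seedlings grew on medium with 3% sucrose, for 4 days with 8 h of light daily and 16 h of night; then all of them, in both lines, received 160 min of light alternating with 320 min of darkness. Each array sampled seedlings 120 min after lights went off, either 1240 min (late) or 280 min (early) after dawn. The 4 groups were therefore CCA1-34 late, CCA1-34 early, Col late and Col early, each with 3 arrays, and replicates 1, 2 and 3 were seedlings of 5, 6 and 7 days. Age, day of sampling and replicate number thus cannot be told apart, and the labels do not say that the arrays of a group came from separately sown cultures, so p-values measure only the spread between these samples, which may be technical.

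Antenna proteins hold chlorophyll a and b in the thylakoid membrane and pass excitation energy to the reaction centres, LHCA proteins mainly to photosystem I and LHCB proteins mainly to photosystem II. Chlorophyll is built from glutamate through 5-aminolevulinic acid and protoporphyrin; insertion of magnesium leads to chlorophyll and insertion of iron to heme, from which the bilin chromophore of phytochrome is made. Transcripts of many of these genes are known to rise in light and to follow the circadian clock, and CCA1 was first described as a protein that binds an LHCB1 promoter.

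Values are deposited log2 levels, on which a difference of 1 is a change by a factor of 2, and a change means a difference between group means tested with limma at a Benjamini-Hochberg adjusted p under 0.05 over 22746 probe sets. CCA1 itself (AT2G46830) lay between 8.46 and 10.2 on the CCA1-34 arrays and between 2.47 and 6.37 on the Col arrays, with no overlap. Over both times the difference was 5.34 (SE 0.550, limma adjusted p = 0.00798), in the direction the labels give. Within a time it did not pass, at 4.56 early (SE 0.777, limma adjusted p = 0.627) and 6.12 late (SE 0.777, limma adjusted p = 0.0588). Missing the threshold within a time thus does not mean equal levels. Of 5 Rubisco markers of green tissue 2 were measured, RBCS1A and RCA, and their array mean was 12.5 to 12.8 on all 12 arrays. RBCS1A reached the highest value on any array, 12.99, and whether the scale is compressed there was not tested. On 2 arrays light-regulated transcripts stood apart: the mean of 7 light-induced genes (HY5, CHS and others) was 6.77 on CCA1-34 early replicate 2, against 5.12 and 4.83 on the other arrays of its group, and 6.03 on Col early replicate 3, against 4.71 and 4.88. By gene, 7 of 7 on CCA1-34 early replicate 2 and 6 of 7 on Col early replicate 3 lay above the mean of their group's other arrays. RUP1 went the other way on Col early replicate 3, at 3.39, and CHS was highest on Col late replicate 1, at 9.76. The mean of 7 dark- and starvation-induced genes was lowest on the same arrays. It was 4.39 in CCA1-34 early replicate 2 and 4.71 in Col early replicate 3, against 4.96 to 6.62 on the other 10 arrays. On each of these 2 arrays, 2 of the 7, DIN2 and DIN9, lay above the mean of their group's other arrays.

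No antenna or synthesis transcript differed between the lines or between the times of day past the threshold. The count was 0 of 35 in each of the 7 comparisons, by limma, and 0 of 35 for the slope over age. At an unadjusted p under 0.05 the member counts were 1 for CCA1-34 minus Col early, 1 late and 1 over both times, 3 for late minus early in Col, 0 in CCA1-34 and 3 over both lines, 1 for the interaction of line and time, and 10 for age. Over all probe sets the share past the adjusted threshold was 0.0044% for CCA1-34 minus Col early, 0.00879% late and 0.022% over both times, 0.0044% for late minus early in Col, 0% in CCA1-34, 0% over both lines and 0% for the interaction, and 0.787% for age. The unadjusted shares over all probe sets, in the same order, were 3.57%, 3.79%, 5.39%, 5.41%, 1.68%, 5.16%, 2.04% and 16.5%. By direction, 14 of 35 members were lower in CCA1-34 than in Col early and 18 of 35 late, against 52% and 51.5% of all probe sets. Late minus early was below 0 in 29 of 35 members in CCA1-34, with a median of -0.09, against 50.1% of all probe sets, and in 22 of 35 members in Col, with a median of -0.08, against 52.6%. The members share the same arrays, so they are no independent replicates; without CCA1-34 early replicate 2 and Col early replicate 3 the medians were -0.05 in CCA1-34 and -0.18 in Col. Leaving out 1 array moved the median to between -0.24 and -0.05 in CCA1-34 and to between -0.18 and 0.02 in Col. The value above 0 was the one without Col late replicate 2. On that array 1 of 35 members was above its mean over all arrays, and 10 members had their lowest value. The mean over members minus that of the other Col late arrays was -0.50. For CCA1-34 early replicate 3 against its group it was -0.68. On Col late replicate 2 the means of 14 root cell and 7 seed and embryo markers, 6.32 and 6.79, were the highest of any array. Their part in the low member values was not tested. The values that follow are thus descriptions of patterns by array, with their errors, and not changes that passed.

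**Figure D1:**
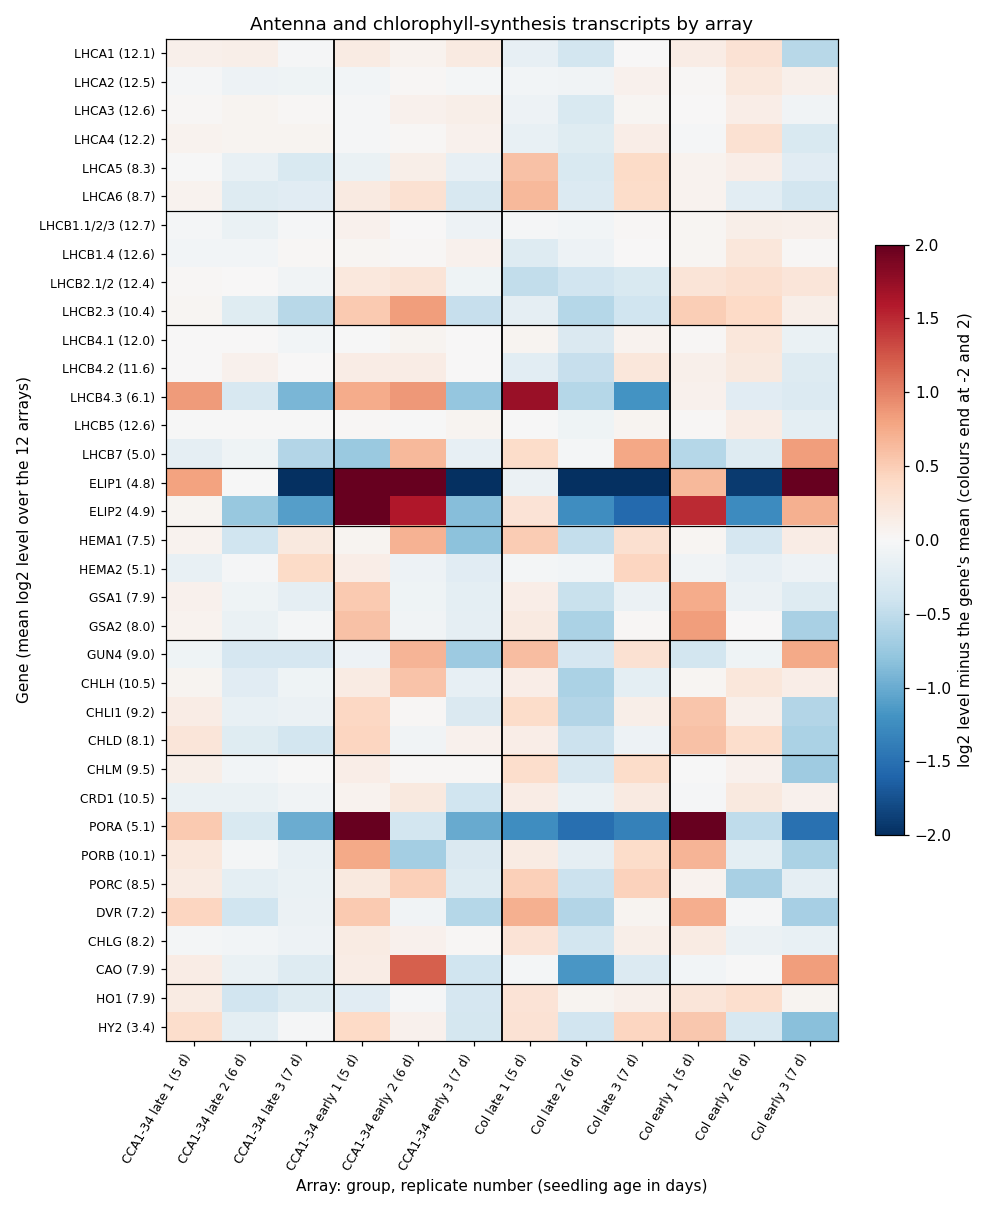
Heat map of the 35 members (rows, in order of role, with the mean log2 level over the 12 arrays in brackets) on each array (columns: CCA1-34 late, CCA1-34 early, Col late, Col early, replicates 1 to 3 at 5 to 7 days). Colour is the log2 level minus the gene's mean, with the colours ending at -2 and 2; most antenna rows are pale, and ELIP1, ELIP2, PORA and LHCB4.3 hold the darkest cells.

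The antenna transcripts gave some of the brightest signals on the arrays. Of the 21 probe sets with a mean of 12 or above, 8 were members: LHCA1 (AT3G54890), LHCA2 (AT3G61470), LHCA3 (AT1G61520), LHCA4 (AT3G47470), LHCB1.1/2/3, LHCB1.4 (AT2G34430), LHCB2.1/2 and LHCB5 (AT4G10340). Their pooled SD within groups had a median of 0.102 and a range of 0.0647 to 0.251, against a median of 0.163 for the other 13 probe sets of that brightness. These signals sit close to the highest value on any array, 12.99, and whether the scale is compressed there was not tested; brightness also depends on the probe set, so it is no ranking of transcript abundance.

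At middle brightness the median spread of the members was above that of other probe sets, a difference given here with no test. The arrays of a group were of 5, 6 and 7 days, so the SD within groups includes any change with age. The 18 members with a mean of 7 to 11, 15 of them synthesis genes, had a median SD of 0.388 within groups, against 0.242 for the other 2717 probe sets of that range. The 7 members under 7 ran from 0.219 for HEMA2 to 2.21 for ELIP1, against a median of 0.194 for the other 19910 probe sets. ELIP1, PORA and ELIP2 had within-group SDs of 2.21, 2.08 and 1.28, so differences between groups of 3 arrays had wide errors for these genes.

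**Figure D2:**
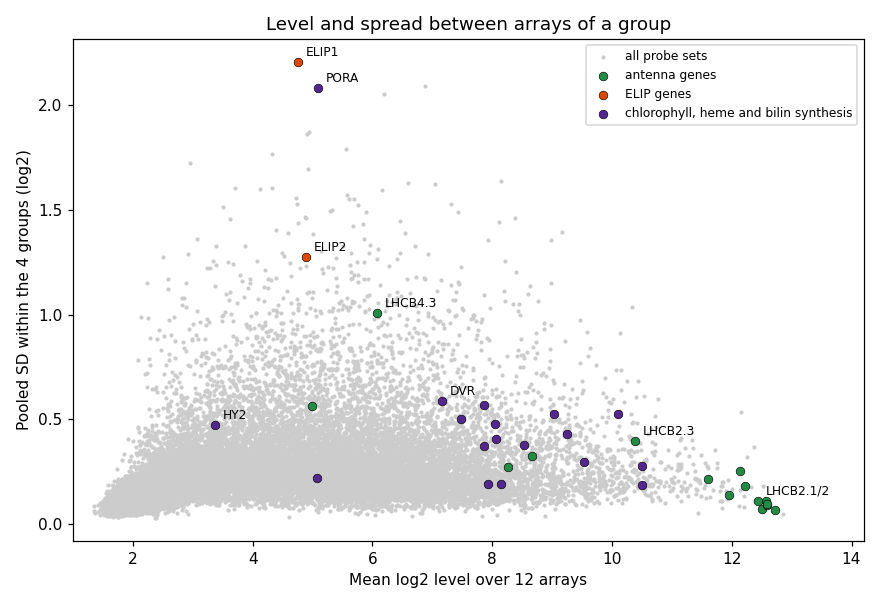
Pooled SD within the 4 groups (y, log2) against mean log2 level over 12 arrays (x) for all probe sets (grey), antenna genes (green), ELIP genes (orange) and synthesis genes (purple). The antenna genes crowd at the bright end with SDs of 0.0647 to 0.251 above a mean of 12, while ELIP1 and PORA lie above an SD of 2.

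No photosystem I antenna gene differed past the threshold between lines or times. LHCA1, LHCA2, LHCA3 and LHCA4, which form the antenna belt of photosystem I, spanned 11.6 to 12.4, 12.4 to 12.7, 12.3 to 12.7 and 11.9 to 12.5 over the 12 arrays. LHCA2 was at 12.48, 12.40 and 12.41 in CCA1-34 late, 12.44, 12.52 and 12.45 in CCA1-34 early, 12.45, 12.43 and 12.58 in Col late, and 12.51, 12.70 and 12.59 in Col early. Its highest 2 arrays were from Col early, and the lines overlapped at each time. The difference CCA1-34 minus Col was -0.13 early (SE 0.0867, limma adjusted p = 1.0) and -0.09 over both times (SE 0.0613, limma adjusted p = 0.999), where the exact permutation test of 6 against 6 arrays, two-sided, gave p = 0.0606.

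LHCA5 (AT1G45474) and LHCA6 (AT1G19150), minor members known to help link photosystem I to the NDH complex, had far lower signals and moved together in Col late. LHCA5 was at 8.24, 8.11 and 7.95 in CCA1-34 late, 8.13, 8.38 and 8.09 in CCA1-34 early, 8.85, 7.96 and 8.64 in Col late, and 8.32, 8.39 and 8.03 in Col early. LHCA6 was at 8.74, 8.41 and 8.44 in CCA1-34 late, 8.85, 8.98 and 8.35 in CCA1-34 early, 9.32, 8.40 and 9.04 in Col late, and 8.74, 8.45 and 8.30 in Col early. For both genes Col late replicates 1 and 3 were the highest 2 of all arrays and replicate 2 was low, so the groups overlapped. LHCA5 differed by -0.38 between CCA1-34 and Col late (SE 0.208, limma adjusted p = 1.0). For LHCA6, late minus early in CCA1-34 less the same in Col, the interaction, was -0.61 (SE 0.340, limma adjusted p = 1.0), and -0.39 without CCA1-34 early replicate 2 and Col early replicate 3.

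The photosystem II major antenna makes up the trimers of the main light-harvesting complex. In Col, all 4 measured probe sets of this role had every late array below every early array. They were the only ones among the 35 members, 11.4%, whereas over all probe sets 5.14% did so in that direction. The 4 are close relatives read on the same arrays, so they are no independent replicates. In CCA1-34, 0 of the 4 did, where the share over all probe sets was 3.94%. LHCB2.1/2 (AT2G05100 and AT2G05070) was at 12.45, 12.45 and 12.36 in CCA1-34 late, 12.65, 12.70 and 12.35 in CCA1-34 early, 11.95, 12.05 and 12.13 in Col late, and 12.70, 12.75 and 12.68 in Col early. The Col late arrays stood below all the other 9, and the lowest CCA1-34 early array, that of 7 days, was level with CCA1-34 late.

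Group means of LHCB2.1/2 were 12.42 ± 0.05 in CCA1-34 late, 12.57 ± 0.19 in CCA1-34 early, 12.04 ± 0.09 in Col late and 12.71 ± 0.04 in Col early (SD, n = 3 each). Late minus early was -0.67 in Col (SE 0.106, limma adjusted p = 0.196), and at 5, 6 and 7 days it was -0.75, -0.70 and -0.55. In CCA1-34 it was -0.14 (SE 0.106, limma adjusted p = 1.0), with -0.20, -0.25 and 0.01 at the 3 ages. With array weights estimated by limma, which count variable arrays less, the Col value was -0.75 and passed (adjusted p = 0.0303), and so did CCA1-34 minus Col late, at 0.45 (adjusted p = 0.0479). The share of all probe sets that passed with these weights is not given here. With equal weights, CCA1-34 minus Col was 0.38 late (SE 0.106, limma adjusted p = 0.781), where the arrays did not overlap, as held for 5.45% of all probe sets in that direction. The difference between the lines in their late minus early values, tested as an interaction, was 0.52 (SE 0.150, limma adjusted p = 1.0), so a different time-of-day response in the 2 lines was not established.

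LHCB2.3 (AT3G27690), the other LHCB2 gene, was at 10.42, 10.15 and 9.82 in CCA1-34 late, 10.91, 11.23 and 9.92 in CCA1-34 early, 10.20, 9.82 and 9.99 in Col late, and 10.87, 10.78 and 10.50 in Col early. At every age and in both lines the late array was the lower, and in CCA1-34 the groups overlapped because the 7-day early array was low. Late minus early was -0.55 in CCA1-34 (SE 0.292, limma adjusted p = 1.0), -0.72 in Col (SE 0.292, limma adjusted p = 0.900) and -0.63 over both lines (SE 0.206, limma adjusted p = 0.865). Without the 2 early arrays that stood apart in light-regulated transcripts, the CCA1-34 value was -0.28 and the Col value -0.83.

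LHCB1.4 was at 12.54, 12.52 and 12.61 in CCA1-34 late, 12.62, 12.60 and 12.67 in CCA1-34 early, 12.32, 12.48 and 12.59 in Col late, and 12.63, 12.82 and 12.61 in Col early. Late minus early was -0.22 in Col (SE 0.0971, limma adjusted p = 0.900), and in both lines it was below 0 at each age. LHCB1.1/2/3 (AT1G29920, AT1G29910 and AT1G29930), chosen after its values were seen, was at 12.69, 12.59 and 12.70 in CCA1-34 late, 12.81, 12.74 and 12.62 in CCA1-34 early, 12.70, 12.67 and 12.76 in Col late, and 12.76, 12.85 and 12.84 in Col early. Its Col early arrays were all above Col late, but the highest late and the lowest early array were level at 12.76. In whole seedlings fewer green cells and less RNA per cell cannot be told apart. The 2 measured Rubisco markers had late minus early medians of 0.11 in Col and 0.07 in CCA1-34, with 0 at an unadjusted p under 0.05. RBCS1A is 1 of the 2 and held the highest value on any array, where compression was not tested. Their relation to the antenna values was not tested either.

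**Figure D3:**
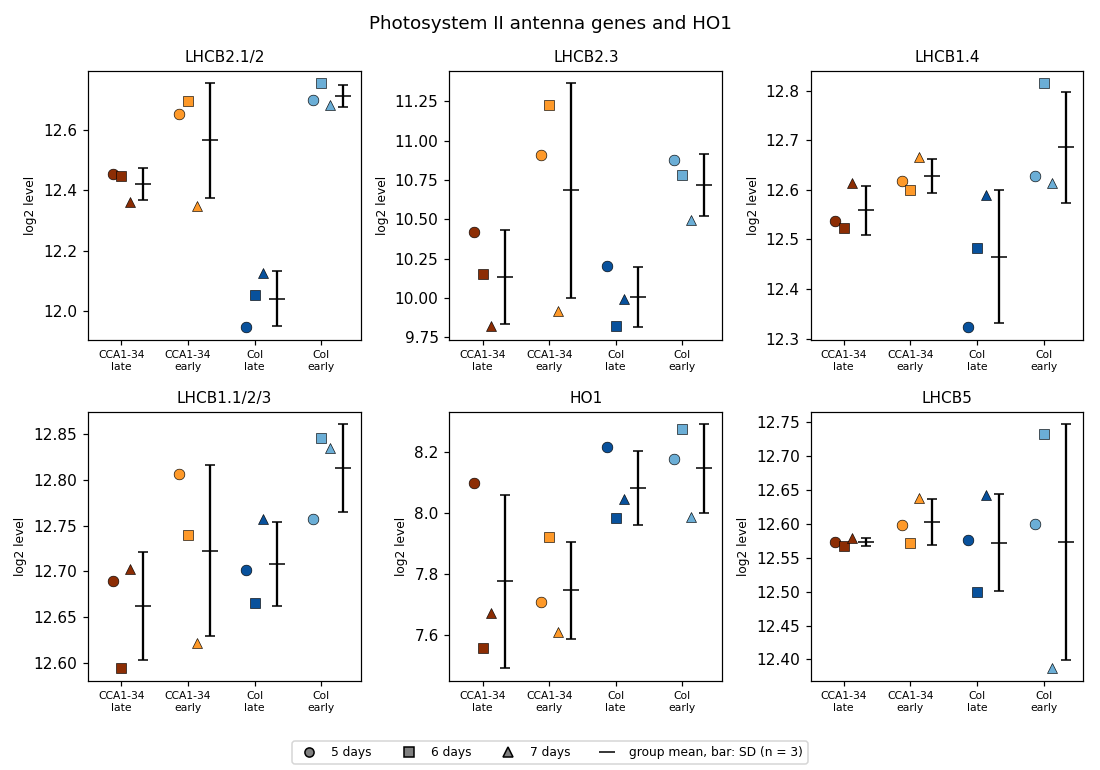
Log2 level (y) of 5 photosystem II antenna probe sets and of HO1 on each array, by group (x), with symbols for 5, 6 and 7 days and the group mean with SD (n = 3); y axes do not start at 0. The Col late arrays of LHCB2.1/2, at 11.95 to 12.13, lie below the other 9, and HO1 lies lower in CCA1-34 than in Col at each age and time.

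The photosystem II minor antenna, which connects the trimers to the core, had no gene past the threshold, and its dim members had the widest ranges. LHCB4.1 (AT5G01530), LHCB4.2 (AT3G08940) and LHCB5 spanned 11.7 to 12.2, 11.2 to 11.8 and 12.4 to 12.7 over the 12 arrays. LHCB7 (AT1G76570), a rare relative chosen after its values were seen, was at 4.80, 4.90 and 4.40 in CCA1-34 late, 4.24, 5.64 and 4.82 in CCA1-34 early, 5.35, 4.94 and 5.76 in Col late, and 4.42, 4.73 and 5.82 in Col early. Late, every CCA1-34 array lay below every Col array, by 0.04 at the nearest, as held for 4.78% of all probe sets in that direction. LHCB4.3 (AT2G40100), a variant LHCB4 gene, varied most with age and is described with the ages below.

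The early light-induced proteins ELIP1 (AT3G22840) and ELIP2 (AT4G14690), relatives of the antenna proteins known to accumulate under strong light, had, with PORA, the widest ranges of the 35 members. ELIP1 was at 5.56, 4.75 and 2.54 in CCA1-34 late, 7.57, 8.43 and 2.76 in CCA1-34 early, 4.63, 2.54 and 2.29 in Col late, and 5.41, 2.85 and 7.77 in Col early. ELIP2 was at 4.95, 4.14 and 3.79 in CCA1-34 late, 7.51, 6.50 and 4.04 in CCA1-34 early, 5.17, 3.65 and 3.33 in Col late, and 6.39, 3.64 and 5.61 in Col early. At 5 days both genes were higher on the early than on the late array of each line. Both were also high on CCA1-34 early replicate 2 and Col early replicate 3, the arrays on which the mean of the light-induced genes was high.

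On the late arrays ELIP1 and ELIP2 stepped down with age in both lines, whereas on the early arrays the order of ages differed between the lines. Late minus early was -1.72 for ELIP2 in CCA1-34 (SE 0.911, limma adjusted p = 1.0) and -1.44 over both lines (SE 0.644, limma adjusted p = 0.865). For ELIP1 it was -1.97 in CCA1-34 and -2.19 in Col, each with an SE of 1.57 (limma adjusted p = 1.0 and 0.909). CCA1-34 minus Col over both times was 1.02 for ELIP1 (SE 1.11, limma adjusted p = 0.999) and 0.52 for ELIP2 (SE 0.644, limma adjusted p = 0.999). The part of the other light-induced genes' levels in these values was not tested; without the 2 arrays the ELIP2 difference over both lines was -1.22.

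Synthesis of 5-aminolevulinic acid, the committed entry to all tetrapyrroles, had 4 measured genes and no line difference past the threshold. CCA1-34 minus Col was -0.04 to 0.05 early and -0.16 to 0.11 late. The SEs ran from 0.171 for HEMA2 to 0.364 for HEMA1, so equal levels were not shown. HEMA1 (AT1G58290), the main glutamyl-tRNA reductase of green tissue, chosen after its values were seen, was at 7.55, 7.08 and 7.68 in CCA1-34 late, 7.54, 8.17 and 6.67 in CCA1-34 early, 7.99, 7.01 and 7.80 in Col late, and 7.52, 7.15 and 7.63 in Col early. Its highest array was CCA1-34 early replicate 2 and its lowest was replicate 3 of the same group. HEMA2 (AT1G09940), its isoform that is less dependent on light, was the only member of the 35 whose Col late arrays all lay above Col early, at 5.03, 5.01 and 5.51 against 5.00, 4.90 and 4.98, as held for 3.77% of all probe sets in that direction.

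The magnesium chelatase subunits CHLH (AT5G13630), CHLI1 (AT4G18480) and CHLD (AT1G08520) and the chelatase activator GUN4 (AT3G59400) had group means within 0.44 of each other for any 1 gene. All 4 had lower late means in CCA1-34, by 0.09 to 0.28, and 3 of the 4 in Col, where differences ran from -0.37 to 0.09. GUN4, chosen after its values were seen, was at 8.95, 8.69 and 8.69 in CCA1-34 late, 8.93, 9.71 and 8.30 in CCA1-34 early, 9.65, 8.69 and 9.33 in Col late, and 8.66, 8.94 and 9.79 in Col early. Its highest 2 arrays were the early arrays on which the mean of the light-induced genes was high, and the 4 groups overlapped.

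The steps from magnesium protoporphyrin to chlorophyll begin with CHLM (AT4G25080), a methyltransferase, and CRD1 (AT3G56940), part of the cyclase; these spanned 8.83 to 9.90 and 10.11 to 10.70 over all arrays. The 3 protochlorophyllide oxidoreductases, which need light to act, behaved differently from each other. PORA (AT5G54190), known for its abundance in dark-grown seedlings and its fall in light, was at 5.62, 4.80 and 4.1 in CCA1-34 late, 9.33, 4.73 and 4.09 in CCA1-34 early, 3.85, 3.59 and 3.74 in Col late, and 9.10, 4.59 and 3.61 in Col early. It was thus far above its other values on the 2 early arrays of 5 days, 1 in each line, and at 6 and 7 days it lay between 3.59 and 4.80 on all arrays. Late, every CCA1-34 array of PORA lay above every Col array, as held for 5.45% of all probe sets in that direction.

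PORB (AT4G27440), the oxidoreductase found in dark-grown and green tissue alike, spanned 9.41 to 10.86, with the same 2 early arrays of 5 days at 10.86 in CCA1-34 and 10.77 in Col as its highest. PORC (AT1G03630), the light-induced form, was at 8.70, 8.34 and 8.40 in CCA1-34 late, 8.74, 9.01 and 8.28 in CCA1-34 early, 9.01, 8.10 and 8.99 in Col late, and 8.60, 7.88 and 8.36 in Col early. The groups of PORC overlapped; CCA1-34 minus Col early was 0.40 (SE 0.280, limma adjusted p = 1.0) and the interaction was -0.62 (SE 0.395, limma adjusted p = 1.0).

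CAO (AT1G44446), the oxygenase that makes chlorophyll b, chosen after its values were seen, was at 8.01, 7.74 and 7.61 in CCA1-34 late, 8.02, 9.06 and 7.47 in CCA1-34 early, 7.82, 6.70 and 7.59 in Col late, and 7.82, 7.86 and 8.70 in Col early. Its highest 2 arrays were again CCA1-34 early replicate 2 and Col early replicate 3. Most of the 35 members did not share this on Col early replicate 3, which was the highest array for 2 members and the lowest for 9. There 9 of 35 were above the mean of the other arrays of the group. CCA1-34 early replicate 2 was the highest array for 6 members and the lowest for 1. CHLG (AT3G51820), the chlorophyll synthase, was the only member of the 35 whose CCA1-34 late arrays, at 8.11, 8.10 and 8.05, all lay below CCA1-34 early, at 8.31, 8.24 and 8.18, as held for 3.94% of all probe sets in that direction.

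**Figure D4:**
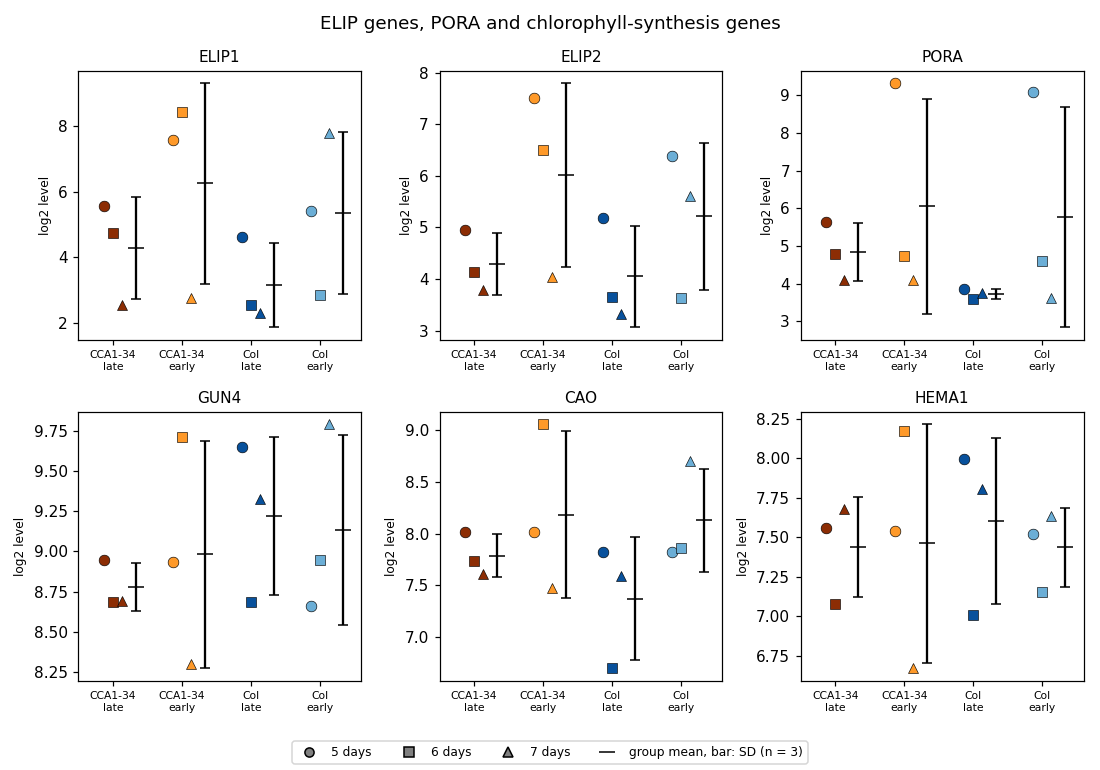
Log2 level (y) of ELIP1, ELIP2, PORA, GUN4, CAO and HEMA1 on each array, by group (x), with symbols for 5, 6 and 7 days and the group mean with SD (n = 3); y axes do not start at 0. PORA is at 9.33 and 9.10 on the early arrays of 5 days and under 6 elsewhere; GUN4 and CAO are highest on CCA1-34 early at 6 days and Col early at 7 days.

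Of the heme branch, HO1 (AT2G26670), the plastid heme oxygenase that opens heme to biliverdin, had lower values in CCA1-34 than in Col at each age and time. It was at 8.10, 7.55 and 7.67 in CCA1-34 late, 7.71, 7.92 and 7.61 in CCA1-34 early, 8.22, 7.98 and 8.04 in Col late, and 8.17, 8.27 and 7.99 in Col early. The early arrays of the lines did not overlap, as held for 4.49% of all probe sets in that direction, and late the 5-day CCA1-34 array overlapped Col. CCA1-34 minus Col was -0.40 early (SE 0.152, limma adjusted p = 1.0), -0.31 late (SE 0.152, limma adjusted p = 1.0) and -0.35 over both times (SE 0.108, limma adjusted p = 0.612).

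Over all 6 arrays of a line HO1 averaged 7.76 ± 0.21 in CCA1-34 and 8.11 ± 0.12 in Col (SD, n = 6 each). The exact permutation test of 6 against 6 arrays, two-sided over 924 assignments, gave p = 0.0108, or 0.658 after adjustment over all probe sets; its smallest possible p is 0.002165. HY2 (AT3G09150), which turns biliverdin into the phytochrome chromophore, had the dimmest signal of the members, at 2.55 to 3.92, with line differences of 0.24 early and -0.07 late.

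Most members had lower values at the older ages, with no member past the threshold. The slope per day was below 0 in 29 of 35 members, with a median of -0.10, while over all probe sets 48.7% had a slope below 0 and the median was 0.003. All 10 members with an unadjusted p under 0.05 had slopes below 0, where 7.24% of all probe sets had both: LHCB4.3, DVR, PORA, GSA1, CHLD, ELIP2, CHLI1, LHCB2.3, GSA2 and HY2. By role, slopes below 0 were found for 3 of 6 members of the photosystem I antenna, 3 of 4 of the photosystem II major antenna, 4 of 5 of the minor antenna and 2 of 2 early light-induced proteins. Among the synthesis genes they were found for 3 of 4 of 5-aminolevulinic acid synthesis, 4 of 4 of the chelatase group, 8 of 8 between magnesium protoporphyrin and chlorophyll and 2 of 2 of the heme branch. A difference between roles was not tested.

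LHCB4.3 was at 6.93, 5.75 and 5.16 at 5, 6 and 7 days in CCA1-34 late, 6.81, 6.94 and 5.30 in CCA1-34 early, 7.80, 5.49 and 4.87 in Col late, and 6.16, 5.84 and 5.79 in Col early. Its mean was 6.92 at 5 days, 6.00 at 6 days and 5.28 at 7 days, and every 7-day array lay below every 5-day array. The slope was -0.82 per day (SE 0.190, limma adjusted p = 0.0784), which misses the threshold; it passed without the 2 early arrays that stood apart, at -0.98 (adjusted p = 0.0445), and with array weights, at -0.99 (adjusted p = 0.0167).

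DVR (AT5G18660), the divinyl reductase of chlorophyll synthesis, was at 7.59, 6.76 and 7.04 at 5, 6 and 7 days in CCA1-34 late, 7.68, 7.09 and 6.59 in CCA1-34 early, 7.88, 6.58 and 7.22 in Col late, and 7.89, 7.14 and 6.50 in Col early. All 4 arrays of 5 days, at 7.59 to 7.89, were above all 8 older arrays, at 6.50 to 7.22. The slope was -0.46 per day (SE 0.121, limma adjusted p = 0.103); without Col late replicate 2 it had the same size and passed (adjusted p = 0.0370), as it did with array weights, at -0.47 (adjusted p = 0.0313). For the slopes of LHCB4.3 and DVR, the share of all probe sets that passed under the other settings is not given here. PORA had a slope of -1.55 (SE 0.450, limma adjusted p = 0.127), with means of 6.98, 4.43 and 3.88 at 5, 6 and 7 days.

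In all, 6 members had every 7-day array below every 5-day array, while 4.08% of all probe sets did: LHCB4.3, DVR, GSA1 (AT5G63570), GSA2 (AT3G48730), CHLI1 and CHLD. The last 4 are named for this after their values were seen. GSA1 and GSA2, both glutamate-1-semialdehyde aminomutases, had means of 8.24 and 8.46 at 5 days, 7.68 and 7.83 at 6 days, and 7.68 and 7.83 at 7 days. CHLI1 spanned 9.39 to 9.80 at 5 days, 8.65 to 9.34 at 6 days and 8.66 to 9.36 at 7 days. For GSA1, GSA2, CHLI1 and DVR the step lay between 5 and 6 days, with nearly equal means at 6 and 7 days.

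**Figure D5:**
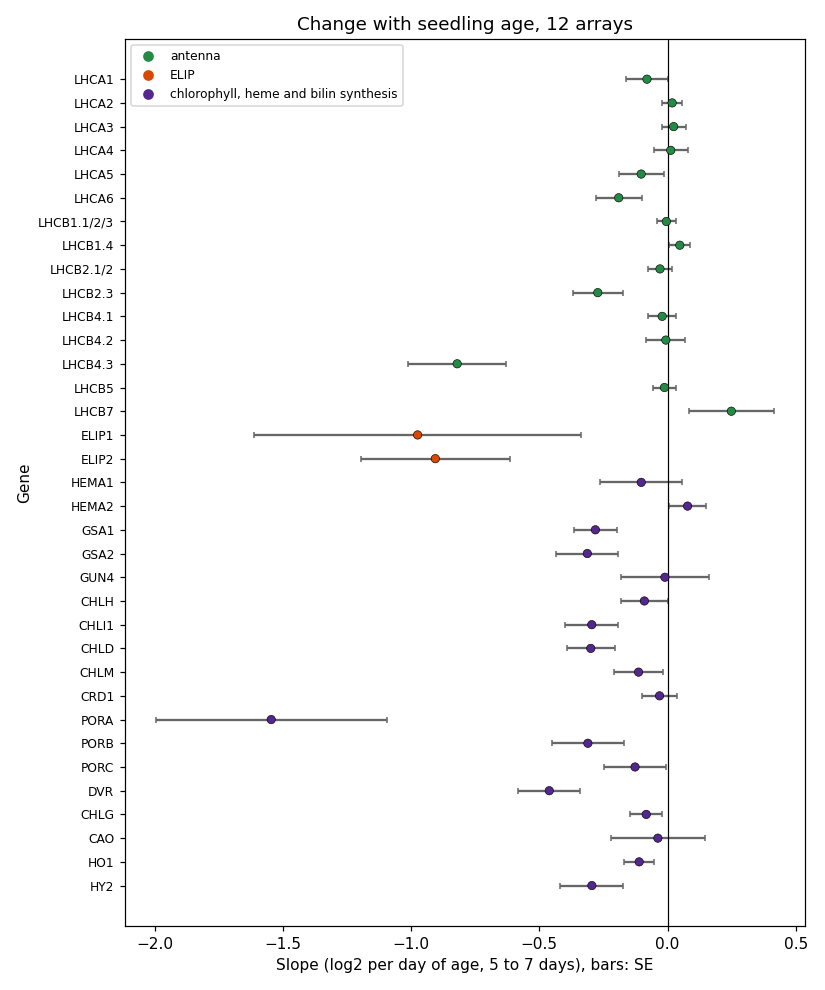
Slope of the log2 level per day of age (x, bars are the SE) for each of the 35 members (y) over 12 arrays with the group as a factor. Slopes of the bright antenna genes lie near 0, while PORA, ELIP1, ELIP2 and LHCB4.3 lie lowest, from -1.55 to -0.82.

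Markers of root cells had lower values at the older ages as well. All 14 (Casparian strip, root hair and root tip genes) had slopes below 0, with a median of -0.41; 12 had an unadjusted p under 0.05, and 1 passed, CASP5 (-1.24 per day, SE 0.224, limma adjusted p = 0.0432). Their array mean ran from 5.61 to 6.13 at 5 days, 5.34 to 6.32 at 6 days and 4.84 to 5.28 at 7 days. The 2 Rubisco markers averaged 12.64, 12.62 and 12.62 at 5, 6 and 7 days, and 7 seed and embryo markers averaged 4.91, 6.07 and 5.44. The part of these tissue markers in the slopes of the synthesis genes was not tested.

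Other genes of the pathway were described by list. Of 16 measured other tetrapyrrole genes (HEMB1, HEMC, FC1, GGR and others), 14 had slopes below 0 with age, with a median of -0.25, and 0 passed in limma (lowest adjusted p = 0.0648), with 9 at an unadjusted p under 0.05. In the same genes late minus early was below 0 in 14 of 16 in CCA1-34 and in 12 of 16 in Col, with medians of -0.16 and -0.09. The 12 photosystem I and 10 photosystem II subunits had medians within 0.05 of 0 in all 8 comparisons; 0 passed in limma, and over all 8 there were 1 and 0 unadjusted p-values under 0.05. Genes of antenna assembly and antenna kinases, such as ALB3 and STN7, numbered 11. Late, 11 of 11 had lower means in CCA1-34 than in Col, with a median of -0.18, against 51.5% of all probe sets. Early, 2 of 11 were lower in CCA1-34, against 52%. In Col, 10 had higher late than early means, with a median of 0.26, where 47.4% of all probe sets did. Their array means on Col late replicates 1, 2 and 3 were 8.20, 7.49 and 8.23, and replicate 2 was the lowest of the 12 arrays. In these comparisons 0 passed in limma, and 0 had an unadjusted p under 0.05. Of 9 measured genes of chlorophyll breakdown and 11 regulators of the antenna genes, GLK1, GLK2 and PIF3 among them, 0 passed in limma in any comparison, with 9 and 10 unadjusted p-values under 0.05 over the 8, and medians lay between -0.13 and 0.01 for breakdown and between -0.07 and 0.14 for the regulators. The 7 light-induced, 7 dark- and starvation-induced, 7 seed and 2 Rubisco markers also had 0 past the threshold in limma in any comparison, with 8, 2, 4 and 0 unadjusted p-values under 0.05 over the 8.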

How the data were processed

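The deposited files hold log2 levels that the authors computed by RMA, as the file headers state; no source used here names its version or options. RMA as usually run makes the arrays' distributions nearly equal: medians were 4.01 to 4.12, and arrays of a group correlated at 0.962 to 0.992. Arrays have no read depth, so their number (3 per group) limits the precision. Array controls (64 of the 22810 probe sets) did not enter any fit. A gene with several probe sets was represented by the brighter (CHLD, at 8.07 against 1.89). The locus column named the members, and all 42 were found in the TAIR10.1 gene table.

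Group means were compared with the limma package (3.58.1, under R 4.3.3; moderated two-sided tests) on all 12 arrays in 1 fit with 8 residual degrees of freedom, and age as a slope with group as a factor (7). The Benjamini-Hochberg adjustment covered all 22746 remaining probe sets, and the code was tested on simulated data. Members named with their fitted values are the 3 with the smallest unadjusted p in each of the 8 comparisons and the ELIP genes. Members and gene lists were chosen with earlier results of these data known. Replicate numbers mark a shared day and age in the labels; deviations of the 18 same-numbered pairs of arrays from their group means correlated at -0.317 to 0.505. Groups of 3 arrays allow no outlier test. Other settings tried were a replicate block, no dim probe sets, another normalization, a spread trend, array weights, fewer groups and arrays left out. Promoter and protein sequences were not used here.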

Additional observations from a re-analysis of the deposited data

Results flagged for a closer look

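For LHCB2.1/2, the difference between the lines had opposite signs at the 2 times. CCA1-34 minus Col was 0.51, 0.40 and 0.23 at 5, 6 and 7 days late, and -0.05, -0.06 and -0.33 early. The late mean minus the early mean of this difference was 0.52. It is the interaction given above, for which limma gave an adjusted p of 1.0. Early, the mean of CCA1-34 minus Col was -0.15 (SE 0.106, limma adjusted p = 0.9998) and the lines overlapped. An opposite effect early was thus not established.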

How the results depend on the processing

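Members passing the threshold numbered 0 in all 8 comparisons. With array weights estimated by limma there was 1 for CCA1-34 minus Col late (LHCB2.1/2, 0.45, adjusted p = 0.0479), 1 for late minus early in Col (LHCB2.1/2, -0.75, adjusted p = 0.0303) and 3 for age (LHCB4.3, ELIP2 and DVR); LHCB4.3 had a slope of -0.99 (adjusted p = 0.0167) and DVR one of -0.47 (adjusted p = 0.0313). For age, leaving out 1 array gave 0 to 1, the 1 being DVR without Col late replicate 2, and leaving out both CCA1-34 early replicate 2 and Col early replicate 3 gave 2 (LHCB4.3 and ELIP1). The causes were not tested. The share of all probe sets that passed under these settings is not given here, so these counts cannot be read as particular to the members. Array weights also lowered limma's adjusted p for members that did not pass. For late minus early in Col it fell from 0.900 to 0.154 for LHCB1.4 and from 0.900 to 0.325 for LHCB2.3. With the replicate block, which was not run for age because the 2 are the same factor, 0 members passed in the 7 comparisons, so it changed no call. Of the 24 differences of members named by the rule, 24 kept their sign under every alternative run, and 4 passed under at least 1, but 13 moved by over 1.5 times under at least 1. Leaving out 1 array gave LHCB2.3 a late minus early difference of -0.94 to -0.28 in CCA1-34, LHCB2.1/2 one of -0.25 to -0.08 and ELIP2 one of -2.71 to -0.98, the ends nearest to 0 being those without CCA1-34 early replicate 2 (LHCB2.3, LHCB2.1/2) or 1 (ELIP2) and the others those without replicate 3. CCA1-34 minus Col late was -0.64 for LHCA5 without Col late replicate 2 and -0.20 without replicate 1, and for HO1 -0.47 without CCA1-34 late replicate 1 and -0.20 without replicate 2. CCA1-34 minus Col early was 0.19 for PORC and -0.08 for LHCA2 without Col early replicate 2, and -0.05 for LHCA2 after another quantile normalization. The median member difference for late minus early was -0.09 in CCA1-34 (range over the alternatives -0.24 to -0.05), -0.08 in Col (-0.18 to 0.02) and -0.07 over both lines (-0.11 to 0.0002); the lowest in CCA1-34 was without CCA1-34 early replicate 3, and the values above 0 were without Col late replicate 2. The median for CCA1-34 minus Col turned sign early (0.04, range -0.10 to 0.15), late (-0.01, range -0.13 to 0.10) and over both times (0.03, range -0.06 to 0.09), as did that for the interaction (-0.03, range -0.17 to 0.10). The highest value on any array was 12.99, and whether the scale is compressed near it was not tested. The SDs of ELIP1 and PORA limit what 3 arrays can show.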
